A study of Mus musculus with 12 samples.

Results

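The comparison described here is that of MC38CEA cells carrying the *Adam17*-targeting shRNA A17.2 with MC38CEA cells carrying a control shRNA, after both had been stimulated with IL1β and IFNγ. It was made on 6 of the 12 libraries of the series, taken by their labels: 3 of A17.2 cells with cytokines and 3 of control cells with cytokines, matched by replicate number. The other 6 libraries were of the same 2 lines left unstimulated, and they entered the fit and are used below only to set the values with cytokines beside those without. Every gene of the count table was a member: 43271 were listed, 10997 had no read in any library and 15649 had enough reads to be tested. MC38CEA is a mouse colon adenocarcinoma line that expresses human carcinoembryonic antigen. All cells carried a pLKO lentiviral vector and had been selected with puromycin as pools, not as clones. Stimulation lasted 6 h, with human recombinant IL1β and mouse recombinant IFNγ at 10 ng/ml each. The sources used here disagree on which commercial non-targeting vector the control cells carried, and the submitters describe the vector they name, SHC016, as toxic to the cells and prone to lose its shRNA cassette. The labels number the libraries of a group as biological replicates but do not state that each came from its own culture. A p-value here therefore speaks of the spread among the libraries alone, and that spread may be technical.

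The label of an epithelial tumour line was checked against marker genes. Of 16 colon epithelial markers, among them *Epcam*, *Cdh1*, *Vil1* and the keratins *Krt8*, *Krt18* and *Krt20*, only *Lgals4* had enough reads to be tested. *Lgals4* was at 0.314 to 0.536 CPM (read counts scaled to a common library size by TMM) in the control libraries and 0.39 to 0.761 CPM in the A17.2 libraries. The other 15 fell below the count filter, so the defining epithelial markers were low in both lines. Of 11 lymphocyte markers 3 were at 0 and only *Cd79a* and *Lck* were tested, both higher in A17.2 cells. These 2 summed to 1.14 to 1.64 CPM in control and 5.01 to 5.3 CPM in A17.2 libraries. Of 11 macrophage and myeloid markers 4 had enough reads to be tested, 1 of them lower and none without the replicate block. None of the 11 was at 0 in every library, and the 4 tested summed to 25.7 to 34.1 CPM in control and 18.9 to 25.5 CPM in A17.2 libraries. Most of that was *Cd14*, a lipopolysaccharide co-receptor, at 25, 29 and 21.2 CPM in control and 17.3, 15 and 16.3 CPM in A17.2 cells, whereas *Ptprc* and *Csf1r* had at most 3 reads in a library. None of 8 endothelial markers passed the filter. Of 10 fibroblast markers 6 had enough reads to be tested, 3 of them higher and 1 lower. These 6 summed to 753 to 860 CPM in control and 754 to 1183 CPM in A17.2 libraries, the highest sum of the marker lists. In bulk RNA, fewer cells that express a gene and less RNA of it per cell cannot be told apart.

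ADAM17 is a membrane metalloprotease that sheds the ectodomains of TNF, of EGF receptor ligands and of many receptors and adhesion molecules. IL1β signals mainly through NF-κB and MAP kinases, and IFNγ through receptor-bound Janus kinases, which leads to induction of IRF1 and, with it, guanylate-binding proteins, immunity-related GTPases and the machinery of MHC class I presentation. *Nos2*, encoding the inducible nitric oxide synthase, needs both inputs for full expression in many mouse cells.

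*Adam17*, the target, was measured first. Its level was 129, 103 and 95.5 CPM in control replicates 1, 2 and 3 and 52.3, 42.9 and 39.5 CPM in A17.2 replicates 1, 2 and 3, an order kept for all values below. All 3 A17.2 libraries were under all 3 control libraries. The log2 fold change, A17.2 relative to control with the standard error of the fit, was -1.28 ± 0.09 (edgeR adjusted p = 3.2e-07), a 2.42-fold fall. *Adam17* lies on chromosome 12 at chr12:21323509-21373632 of GRCm38, on the minus strand, and overlaps an exon of *Iah1*, an esterase gene on the other strand. *Iah1* was at 62.1, 57.8 and 67.5 CPM in control and 46.6, 50.2 and 47.7 CPM in A17.2 cells, -0.38 ± 0.09 on the log2 scale (edgeR adjusted p = 0.0051, 0.093 without the replicate block). Since the strand setting of the counting is not given in the sources used here, reads of the overlap could have been assigned to either gene.

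*Adam10*, the closest relative of *Adam17*, was at 32.9, 34.5 and 35.5 CPM in control and 27.6, 30.3 and 38.1 CPM in A17.2 cells, and these ranges overlapped. Its log2 fold change of -0.12 ± 0.10 did not pass the test (edgeR adjusted p = 0.39). The study itself reported, from RT-qPCR and western blots of MC38CEA cells, that A17.2 also lowered ADAM10 expression. The list of ADAM17 and its partners also holds *Adam17* itself, the target, and the overlapping esterase gene *Iah1*. Of its 8 tested genes 3 were lower (37.5%, beside 19.1% of all genes) and none was higher in A17.2 cells, 1 by at least 2-fold and 1 without the block. The median log2 fold change was -0.21, whereas the median over all genes tested was 0.01. The third gene beside *Adam17* and *Iah1* was *Frmd8*, encoding a protein that stabilises the iRhom and ADAM17 complex, at -0.33 ± 0.10 (edgeR adjusted p = 0.021). That call was lost without the block (0.57) and without replicate 1 or 2 of either group (adjusted p 0.0642 to 0.119). *Furin*, the convertase that removes the ADAM17 prodomain and the most abundant gene of the list, was at 137, 195 and 214 CPM in control and 151, 209 and 251 CPM in A17.2 cells (edgeR adjusted p = 0.19).

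**Figure D1:**
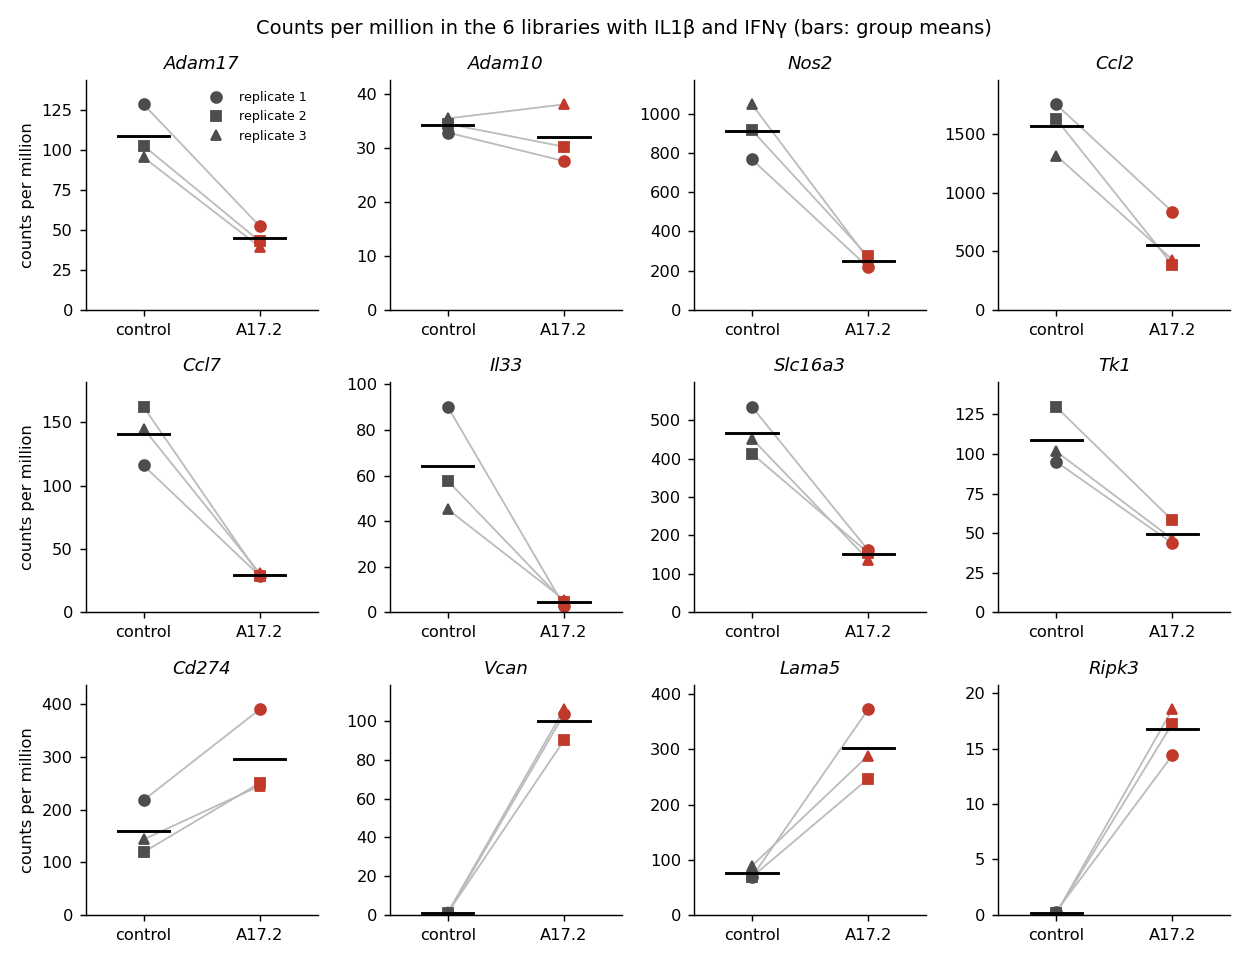
CPM (vertical axis, linear from 0, scaled by TMM) of 12 genes in the 3 control and the 3 A17.2 libraries with cytokines. Points are libraries, grey lines join equal replicate numbers and black bars are group means. *Adam10* is the only gene of the 12 whose groups overlap.

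Over the whole transcriptome, 2796 genes were higher in A17.2 cells (17.9% of those tested) and 2995 were lower (19.1%), by edgeR's quasi-likelihood test with the replicate number as a block and a Benjamini-Hochberg adjusted p under 0.05. A change of at least 2-fold was reached by 735 called genes upwards (4.7%) and 479 downwards (3.06%), and one of at least 4-fold by 206 and 129 genes. Since such a large share of the table passed, the 2-fold counts and the counts without the block are given beside the lists, and a list's share of calls reads against these shares of all genes. Without the block 496 genes were higher (3.17%) and 576 lower (3.68%), and all 1072 of them had the same call with it. The pairing rests on the labels' numbers, and libraries with the same number deviated together from their group means: 18 such pairs correlated at 0.309 to 0.85. The 36 pairs with unequal numbers were at -0.751 to 0.455, so the ranges overlapped. Unequal pairs with replicate 1 were negative. Those of replicates 2 and 3 were positive and reached into the range of equal pairs, so these 2 numbers were not clearly told apart. The 3 pairs had the same sign for 99.1% of called genes and for 61.3% of all genes. The groups did not overlap for 3265 of the 5791 called genes (56.4%). Among all 15649 genes tested they did not overlap for 1894 upwards and 2021 downwards. Library totals were 16592831 to 26877210 counts in control and 24130576 to 31854029 in A17.2 cells, and the first 2 principal components separated the lines (60.7% of the variance) and replicate 1 from replicates 2 and 3 (28.3%).

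**Figure D2:**
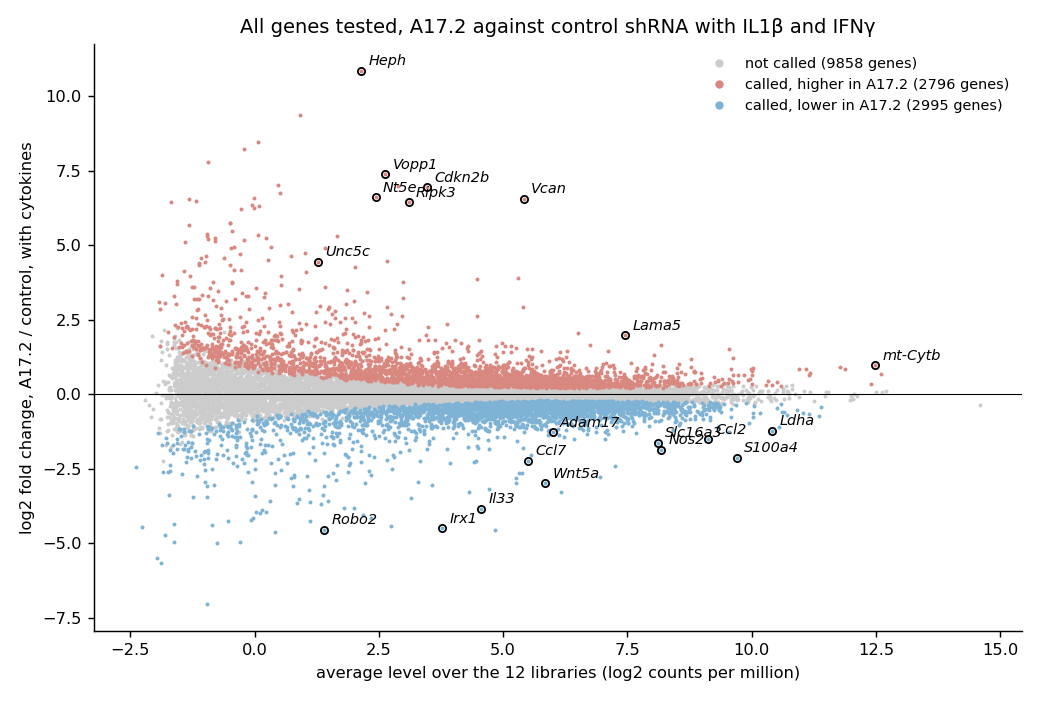
Fitted log2 fold change of A17.2 against control cells with cytokines (vertical axis) against the average log2 CPM over the 12 libraries (horizontal axis) for the 15649 genes tested. Red and blue points are the 2796 higher and 2995 lower genes, grey points did not pass; the fitted value of *Heph*, which had no read in control cells, depends on the prior count.

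The inflammatory genes that the study followed in these cells were lower. *Nos2* was at 766, 915 and 1047 CPM in control and 218, 273 and 259 CPM in A17.2 cells. The groups were far apart, and the fall was 3.62-fold, -1.86 ± 0.10 on the log2 scale (edgeR adjusted p = 3.2e-08, 0.001 without the block). *Ccl2*, which recruits monocytes, was at 1753, 1628 and 1317 CPM in control and 837, 386 and 429 CPM in A17.2 cells. A17.2 replicate 1 was the highest of its group but still under every control library. The log2 fold change of *Ccl2* was -1.50 ± 0.34 (edgeR adjusted p = 0.0029, 0.053 without the block). *Ccl7*, its neighbour on chromosome 11 and a ligand of the same receptor, was at 116, 162 and 145 CPM in control cells and 28.8, 28.9 and 30.8 CPM in A17.2 cells, a 4.69-fold fall of -2.23 ± 0.18 (edgeR adjusted p = 6.9e-07). In unstimulated cells *Ccl2* was at -3.92 on the log2 scale, but the difference between both comparisons did not pass the test (edgeR adjusted p of 0.05 after rounding).

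Of 17 chemokine genes tested, 9 were lower and 2 higher, 6 and 1 of these by at least 2-fold, and 5 and none without the block. Their median log2 fold change was -0.68. Leaving out replicate 2 of the control or of the A17.2 group left 6 lower and none higher, and DESeq2 called 6 lower and 1 higher. *Ccl8* fell from 2.86, 3.53 and 3.28 CPM in control to 0.791, 0.39 and 0.865 CPM in A17.2 cells (-2.22 ± 0.31, edgeR adjusted p = 8.5e-05), and *Ccl9* from 5.54, 9.03 and 6.66 to 0.0304, 0.737 and 1.18 CPM (-3.58 ± 0.51, edgeR adjusted p = 9.2e-05). Both lie near *Ccl2* and *Ccl7* in the CC chemokine clusters of chromosome 11. *Cxcl10*, the IFNγ-induced ligand of CXCR3 and the most abundant chemokine, was at 8418, 8491 and 8708 CPM in control and 9356, 7609 and 7499 CPM in A17.2 cells. These ranges overlapped (-0.07 ± 0.17, edgeR adjusted p = 0.79). The 2 higher genes were *Cxcl11* (0.50 ± 0.14, edgeR adjusted p = 0.013) and *Cxcl3* (1.18 ± 0.39, edgeR adjusted p = 0.029), and neither call was stable: *Cxcl11* was lost without replicate 1 or 2 of either group (adjusted p 0.0567 to 0.107), and *Cxcl3* in DESeq2 (0.309), without control replicate 2 or 3 and without A17.2 replicate 1 or 2 (0.0983 to 0.186).

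Among 27 cytokines and inflammatory enzymes, 7 were lower and 6 higher (25.9% and 22.2%, beside 19.1% and 17.9% of all genes). By at least 2-fold it was 4 and 3, and the median was 0.01. Without the block 3 were lower and none higher. *Il33*, an alarmin stored in the nucleus, had the strongest fall of the abundant ones, from 90.1, 57.7 and 45.2 CPM in control to 2.92, 4.68 and 5.6 CPM in A17.2 cells. That is 14.2-fold, -3.83 ± 0.29 on the log2 scale (edgeR adjusted p = 4.2e-07, 0.00036 without the block), and the unstimulated comparison gave -3.57. *Mmp3*, stromelysin, was at 0.179, 3.73 and 2.58 CPM in control and 0, 0.26 and 0.104 CPM in A17.2 cells, so the lowest control library was within the A17.2 range (-4.15 ± 0.40, edgeR adjusted p = 3.6e-06, 0.074 without the block). *Lcn2*, a siderophore-binding acute phase protein, showed the weight of replicate 1 in both lines: 7.86, 0.903 and 0.657 CPM in control and 32.4, 3.25 and 2.46 CPM in A17.2 cells. It was higher in every pair (1.95 ± 0.21, edgeR adjusted p = 1.0e-05) but not without the block (0.32). *Spp1*, osteopontin, the most abundant gene of the list, did not pass, at 6086, 4130.4 and 4380.4 CPM in control and 7839.6, 4127 and 4107 CPM in A17.2 cells (edgeR adjusted p = 0.71).

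Type I interferon response genes, which are antiviral effectors largely switched on through the interferon-stimulated response element (ISRE), were mostly lower: 32 of 59 fell (54.2%, beside 19.1% of all genes), 1 rose and the median was -0.49. Of these, 7 fell by at least 2-fold, and 7 were lower without the block. *Oas1a*, an oligoadenylate synthetase, was at 275, 228 and 265 CPM in control and 138, 125 and 145 CPM in A17.2 cells. Each A17.2 library held about the same lower level (-0.91 ± 0.12, edgeR adjusted p = 4.7e-05). *Phf11b* fell further, from 58.6, 53.6 and 53.3 to 10.0, 17.8 and 23.3 CPM (-1.80 ± 0.24, edgeR adjusted p = 5.2e-05), as did *Phf11d* (-1.34 ± 0.19, edgeR adjusted p = 9.2e-05). *Phf11b* and *Phf11d* are related genes of one cluster on chromosome 14, so reads could have been split between them, and chromosome 14 as a whole was lower, as given below. Without chromosomes 14, 15 and X the list had 28 lower and 1 higher of 55 genes.

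*Ifit1*, which binds viral RNA, was at 319, 429.7 and 448 CPM in control and 205, 271 and 485 CPM in A17.2 cells, where replicate 3 lay above every control library. It did not pass (-0.40 ± 0.18, edgeR adjusted p = 0.1), although it did without replicate 3 of the control (0.0479) or of the A17.2 group (0.0445). *Oas1b*, a close paralogue of *Oas1a*, was at 59.9, 37.8 and 28.6 CPM in control and 65.3, 33.4 and 39.1 CPM in A17.2 cells and did not pass either (0.13 ± 0.15, edgeR adjusted p = 0.54). *Rnf213*, an E3 ligase and the most abundant gene of the list, was at 1327, 1321 and 1272 CPM in control and 1317, 1319 and 1637 CPM in A17.2 cells (0.11 ± 0.13, edgeR adjusted p = 0.54). *Ifi27* was the single gene called higher, at 0.38 ± 0.10 (edgeR adjusted p = 0.0091), a call lost without the block (0.43) and without control replicate 1 (0.0597) or 2 (0.0629).

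The promoters of 3 of these genes are shown because they carry the core of the ISRE, searched on both strands as the letters GAAA followed by any 2 bases and GAAA again. They are the 250 bases before the annotated start, from RefSeq on GRCm38.p6, 5′ to 3′ on the gene's strand, with the match in capitals and overlapping matches merged. *Oas1a* is at chr5:120907526-120907775 on the minus strand, *Phf11b* at chr14:59341331-59341580 on the minus strand and *Ifit1* at chr19:34640639-34640888 on the plus strand.
Oas1a: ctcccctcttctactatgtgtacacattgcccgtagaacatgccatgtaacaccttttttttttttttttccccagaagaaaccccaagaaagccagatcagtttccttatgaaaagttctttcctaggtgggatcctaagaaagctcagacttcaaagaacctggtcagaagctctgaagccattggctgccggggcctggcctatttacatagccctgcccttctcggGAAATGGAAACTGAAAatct
Phf11b: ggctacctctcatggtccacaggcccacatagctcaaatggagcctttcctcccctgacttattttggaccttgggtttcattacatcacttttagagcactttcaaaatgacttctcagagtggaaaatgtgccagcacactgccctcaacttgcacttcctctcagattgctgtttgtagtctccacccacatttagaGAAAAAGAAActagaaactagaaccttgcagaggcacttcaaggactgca
Ifit1: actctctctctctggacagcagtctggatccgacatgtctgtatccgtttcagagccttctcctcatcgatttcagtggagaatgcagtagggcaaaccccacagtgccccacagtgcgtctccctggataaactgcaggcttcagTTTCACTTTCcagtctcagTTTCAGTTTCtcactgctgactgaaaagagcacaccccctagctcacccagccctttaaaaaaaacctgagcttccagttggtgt
The *Oas1a* and *Phf11b* promoters have 1 match each, the last base of that in *Oas1a* standing 5 bases before the start, and the *Ifit1* promoter has 2 on the other strand. A gene with several annotated starts has a window for each, and 46 tested genes of the type I interferon list have 59. Such a match was in 18 of these 59 windows (30.5%), in 13 of the 33 windows of its lower genes (39.4%) and in 2.69% of the 12048 windows of tested genes. It was also in 10 of 14 windows of the guanylate-binding and immunity-related GTPases (71.4%). A match describes letters in the window and not a bound site.

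Few of the genes induced most directly by IFNγ were called once cytokines were present. Among 22 guanylate-binding proteins (GBP) and immunity-related GTPases (IRG), which attack vacuoles that hold intracellular pathogens, 3 were lower and 2 higher. These are 13.6% and 9.09%, beside 19.1% and 17.9% of all genes. None was called by 2-fold and none without the block, and the median was -0.16. *Gbp2*, the most abundant, was at 5151, 3670.0 and 3206 CPM in control and 4326, 4359 and 4340.5 CPM in A17.2 cells (edgeR adjusted p = 0.74). *Ifi47* was at 574, 480.2 and 503 CPM in control and 284, 339 and 328 CPM in A17.2 cells (-0.73 ± 0.19, edgeR adjusted p = 0.0068, 0.0531 without control replicate 1). The calls of this list changed with single libraries: 1 gene was lower and 1 higher without control replicate 1, and 3 lower and none higher without control replicate 3 or without A17.2 replicate 2. DESeq2 also called 1 and 1, no filter on low counts gave 6 lower and 2 higher, and a fit of the 6 libraries alone gave 7 and 2.

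In unstimulated cells the same 22 genes had a median of -2.09. The change between the unstimulated and the cytokine comparison was tested in the same fit as a difference of differences. It passed for 65 genes, 64 with a larger log2 fold change with cytokines (0.409% of genes tested) and 1 with a smaller one (0.00639%). The 64 included 14 of the 22 GBP and IRG genes, 15 of the 59 type I interferon genes, 4 of the 29 MHC class I genes and 1 of the 17 chemokines. No gene passed without the block, where the lowest edgeR adjusted p was 0.152 and 209 genes had an unadjusted p under 0.05. The count was 27 to 157 when single libraries were left out, the lowest without control replicate 3 with cytokines and the highest without A17.2 replicate 3 unstimulated.

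*Ifi47* went from 60.1, 76.6 and 67.6 CPM in unstimulated control and 4.06, 5.97 and 10.8 CPM in unstimulated A17.2 libraries (-3.33) to -0.73 ± 0.19 with cytokines, a difference of 2.61 ± 0.28 (edgeR adjusted p = 0.00069). *Irf1*, the transcription factor at the head of the IFNγ response, went from -1.59 to -0.01 ± 0.14 (edgeR adjusted p of the difference = 0.0015), at 1673, 1187 and 1312 CPM in stimulated control and 1456, 1312 and 1336 CPM in stimulated A17.2 cells. Its levels overlapped fully with cytokines. *Cxcl10* went from -1.74 to -0.07 ± 0.17 (edgeR adjusted p of the difference = 0.0049).

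**Figure D3:**
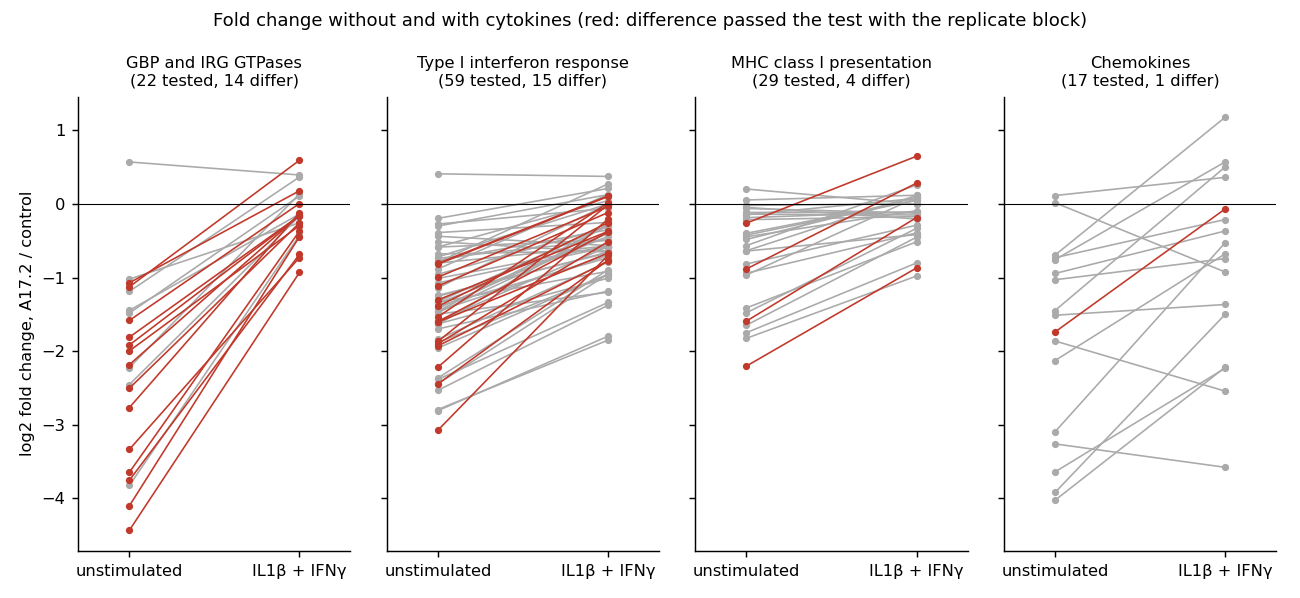
Log2 fold change of A17.2 against control cells without and with cytokines (vertical axis) for the tested members of 4 gene lists, 1 line per gene. Red lines are genes whose change between both comparisons passed the test with the replicate block (14 of 22, 15 of 59, 4 of 29 and 1 of 17); none passed without it.

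Of 29 genes of MHC class I presentation, 5 were lower, a share near the 19.1% of all genes, and 1 higher (3.45%, beside 17.9% of all genes), none by 2-fold, and 3 were lower and none higher without the block. A fit of the 6 libraries alone gave 9 and 1, and no filter on low counts 8 and 3. *Psme1* and *Psme2*, the subunits of the IFNγ-induced proteasome activator PA28, fell together: *Psme1* was at 365, 302 and 319 CPM in control and 178, 171 and 152 CPM in A17.2 cells (-0.98 ± 0.14, edgeR adjusted p = 0.00011), and *Psme2* at -0.80 ± 0.17 (edgeR adjusted p = 0.0017). They lie close together on chromosome 14. *Psmb8*, an immunoproteasome subunit, fell from 940.4, 619 and 539.7 to 429.8, 394 and 316 CPM (-0.87 ± 0.18, edgeR adjusted p = 0.0015). *H2-D1*, a class I heavy chain, did not pass, at 4282, 2030.0 and 2040.0 CPM in control and 4579, 2288 and 1979 CPM in A17.2 cells. *Nlrc5*, the transactivator of class I genes, was the one higher gene, at 470.2, 225 and 201 CPM in control and 675, 347 and 349.8 CPM in A17.2 cells (0.65 ± 0.09, edgeR adjusted p = 0.00011, 0.48 without the block).

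*Cd274*, encoding the checkpoint ligand PD-L1, was at 218, 119 and 143 CPM in control and 390.3, 251 and 245 CPM in A17.2 cells, higher in each pair and without overlap. Its log2 fold change was 0.90 ± 0.09 (edgeR adjusted p = 5.3e-06, 0.082 without the block), beside -0.37 in unstimulated cells, and the difference of 1.26 ± 0.14 passed (edgeR adjusted p = 0.00069). Of 15 checkpoint and co-stimulatory ligands 5 were higher and 3 lower (33.3% and 20%), 1 and 1 by at least 2-fold and 2 and 2 without the block. *Nt5e*, the ecto-nucleotidase CD73, was nearly absent from control cells at 0.298, 0.157 and 0.0469 CPM and reached 12.1, 16.3 and 18.5 CPM in A17.2 cells (6.60 ± 0.35, edgeR adjusted p = 1.6e-08). *Lgals9*, galectin-9, fell from 213, 231 and 286 to 80.2, 105 and 125 CPM (-1.25 ± 0.11, edgeR adjusted p = 1.8e-06).

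Of 43 NF-κB pathway genes 11 were lower and 6 higher (25.6% and 14%, near the 19.1% and 17.9% of all genes), none by 2-fold, where 3.06% and 4.7% of all genes were, and 1 in each direction without the block, with a median of -0.03. *Rela*, the main transactivating subunit, was at 139, 188 and 210.4 CPM in control and 179, 267 and 279 CPM in A17.2 cells (0.43 ± 0.08, edgeR adjusted p = 0.00096, 0.39 without the block). *Map3k14*, the kinase NIK of the non-canonical branch, fell (-0.78 ± 0.11, edgeR adjusted p = 8.0e-05), while *Birc3*, a ubiquitin ligase and NF-κB target, rose from 44.1, 37.2 and 51.1 to 74.4, 55.6 and 76.7 CPM (0.64 ± 0.10, edgeR adjusted p = 0.00013). *Nfkb2* was the most abundant gene and did not pass (0.02 ± 0.12, edgeR adjusted p = 0.9).

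Of 27 genes of JAK-STAT and interferon signalling, 10 were lower and 2 higher (37% and 7.41%), 1 and none by 2-fold and 1 and none without the block. Without A17.2 replicate 1 it was 6 and 1. *Usp18*, an interferon-induced inhibitor of the type I receptor, fell from 307, 253 and 250.2 to 122, 107 and 127 CPM (-1.20 ± 0.19, edgeR adjusted p = 0.00019), and *Irf5* fell as well (-0.77 ± 0.10, edgeR adjusted p = 4.4e-05, 0.14 without the block). *Socs3*, a feedback inhibitor of cytokine receptors, was at -0.55 ± 0.10 (edgeR adjusted p = 0.00052, 0.15 without the block). Among 36 cell death genes 12 were lower and 6 higher (33.3% and 16.7%, beside 19.1% and 17.9% of all genes), so the higher share was near that of all genes. It was 1 and 3 by at least 2-fold and 1 and 2 without the block. *Aim2*, the cytosolic DNA sensor, fell from 29.3, 19.5 and 15.9 to 1.1, 3.12 and 3.77 CPM (-3.04 ± 0.45, edgeR adjusted p = 0.00013), and *Casp1*, the inflammasome protease, rose from 12.6, 13.8 and 13.4 to 32.1, 23.7 and 25.1 CPM (1.03 ± 0.16, edgeR adjusted p = 0.00023). *Ripk3*, the kinase of necroptosis, was close to silent in control cells, at 0.298, 0.157 and 0.141 CPM, and was at 14.4, 17.3 and 18.5 CPM in A17.2 cells, 86.2-fold higher (6.43 ± 0.24, edgeR adjusted p = 4.3e-10).

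Glycolytic and hypoxia-response genes, many of which carry hypoxia response elements bound by HIF1, were mostly lower. Of 47 tested, 30 fell (63.8%) and 5 rose, 8 and 1 by at least 2-fold, and 11 and none without the block. The median of -0.65 was the second lowest of the 34 lists after the chemokines. *Slc16a3*, the lactate exporter MCT4, was at 534, 413 and 452 CPM in control and 162, 155 and 137 CPM in A17.2 cells, a 3.07-fold fall of -1.62 ± 0.14 (edgeR adjusted p = 1.7e-06, 0.00063 without the block). *Ldha*, which makes lactate, was at 1326, 2299.5 and 2103 CPM in control and 441, 1115 and 1029.7 CPM in A17.2 cells. Replicate 1 was the lowest of both groups, and the groups did not overlap (-1.22 ± 0.12, edgeR adjusted p = 4.1e-06, 0.11 without the block).

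Enzymes along the pathway fell together. *Tpi1* was at 883, 1096 and 1181 CPM in control and 299, 518 and 514 CPM in A17.2 cells (-1.28 ± 0.11, edgeR adjusted p = 9.7e-07). *Pfkm*, phosphofructokinase, was at -1.07 ± 0.09, *Aldoa*, aldolase, at -0.70 ± 0.11, *Eno1*, enolase, at -0.65 ± 0.13 and *Pkm*, pyruvate kinase, at -0.71 ± 0.11, with edgeR adjusted p-values of 8.1e-07, 0.00022, 0.0012 and 0.00016. Without the block none of the last 4 passed (0.069, 0.076, 0.58 and 0.31). Other targets of the hypoxia response did not fall: *Car9*, carbonic anhydrase 9, rose from 2.14, 1.18 and 1.22 to 6.48, 3.38 and 2.56 CPM (1.43 ± 0.26, edgeR adjusted p = 0.00059, 0.11 without the block), and *Vegfa* was at 0.35 ± 0.09 (edgeR adjusted p = 0.0057, 0.71 without the block). In unstimulated cells the median of the list was -0.34, and no member's change between the comparisons passed the test.

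The promoters of *Ldha* and *Slc16a3* are shown for the letters ACGTG, the core of the hypoxia response element, found on either strand and set in capitals, overlapping matches merged. *Ldha* is at chr7:46845554-46845803 and *Slc16a3* at chr11:120948817-120949066, both on the plus strand.
Ldha: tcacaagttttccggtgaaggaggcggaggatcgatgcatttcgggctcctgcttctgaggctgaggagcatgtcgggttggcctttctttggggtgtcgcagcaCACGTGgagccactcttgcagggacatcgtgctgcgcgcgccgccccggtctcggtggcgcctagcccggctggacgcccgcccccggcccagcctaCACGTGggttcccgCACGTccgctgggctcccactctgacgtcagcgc
Slc16a3: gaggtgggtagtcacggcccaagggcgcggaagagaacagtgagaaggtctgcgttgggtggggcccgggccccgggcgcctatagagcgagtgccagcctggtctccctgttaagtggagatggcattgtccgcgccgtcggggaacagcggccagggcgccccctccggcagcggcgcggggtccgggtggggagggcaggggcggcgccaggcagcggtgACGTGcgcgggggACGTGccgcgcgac
The *Ldha* window has 3 places with the motif and the *Slc16a3* window 2. The motif is short and common: it was in 21.6% of the windows of tested genes, in 46% of the 63 windows of the glycolysis and hypoxia list and in 23 of 45 windows of its lower genes (51.1%).

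Genes of DNA replication were mostly lower too. Of 57 tested, 43 fell (75.4%) and none rose, with a median of -0.52 that was -0.48 in unstimulated cells. The falls were small: 3 reached 2-fold, and 15 passed without the block. *Tk1*, thymidine kinase, was at 95.1, 129.7 and 102 CPM in control and 43.6, 58.1 and 46.3 CPM in A17.2 cells (-1.14 ± 0.09, edgeR adjusted p = 7.0e-07, 0.0078 without the block). *Lig1*, the ligase that joins Okazaki fragments, was at 115, 167 and 180.1 CPM in control and 49.2, 78.8 and 86 CPM in A17.2 cells (-1.12 ± 0.08, edgeR adjusted p = 2.9e-07). *Mcm5*, a subunit of the replicative helicase and the most abundant of the list, fell from 379.6, 512 and 455 to 210.1, 322 and 266 CPM (-0.76 ± 0.09, edgeR adjusted p = 2.0e-05). In all 3 genes each A17.2 library was under each control library. The letters TTTCGCGC, an E2F site, were in 5 of 39 windows of the lower genes (12.8%) and in 0.498% of the windows of tested genes, searched on both strands.

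Of 46 mitosis genes 22 were lower and 1 higher, 1 and none by at least 2-fold and 4 and none without the block, with a median of -0.25. *Pttg1*, securin, fell from 39.9, 32.7 and 35.6 to 19.4, 14.7 and 15.5 CPM (-1.13 ± 0.12, edgeR adjusted p = 7.8e-06), and *Aurkb*, the kinase of the chromosomal passenger complex, from 133, 201 and 202 to 77.8, 106 and 109 CPM (-0.86 ± 0.09, edgeR adjusted p = 7.0e-06). Both genes of the INK4 inhibitor locus of the cell cycle were higher. *Cdkn2b*, encoding p15, was at 0.238, 0.0785 and 0.0469 CPM in control and 16.6, 11.5 and 15.5 CPM in A17.2 cells (6.95 ± 0.47, edgeR adjusted p = 1.3e-07), a few reads in all in the control group. *Cdkn2a*, its neighbour on chromosome 4, was at 13, 10.3 and 10.6 CPM in control and 24.3, 21.2 and 19.4 CPM in A17.2 cells (0.94 ± 0.10, edgeR adjusted p = 6.7e-06). Over the whole list of p53 targets and CDK inhibitors, 4 of 33 were higher and 9 lower (12.1% and 27.3%), 1 and none by at least 2-fold and 2 and 3 without the block.

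Sterol and fatty acid synthesis, driven by SREBP factors, was lower as well: 22 of 40 genes fell and 2 rose, 6 and 1 by at least 2-fold, with a median of -0.39 and 5 and 1 calls without the block. *Fdft1*, squalene synthase, was at 116, 194 and 174 CPM in control and 40.8, 87.2 and 81.4 CPM in A17.2 cells (-1.25 ± 0.10, edgeR adjusted p = 7.6e-07, 0.073 without the block), and *Mvd*, of the mevalonate pathway, fell by a similar amount (-1.18 ± 0.09, edgeR adjusted p = 4.8e-07, 0.061 without the block). Of 36 NRF2 target and redox genes 16 were lower and 6 higher (44.4% and 16.7%), 2 and 2 by at least 2-fold and 2 and 2 without the block. The lower ones included both oxidative enzymes of the pentose phosphate pathway, *Pgd* (-0.97 ± 0.09, edgeR adjusted p = 2.8e-06) and *G6pdx* (-0.87 ± 0.09, edgeR adjusted p = 8.0e-06), neither of which passed without the block (0.087 and 0.13).

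Genes of the extracellular matrix stood on the other side. Of 29 genes of collagens and the basement membrane 15 were higher and 1 lower, with a median of 0.42, 4 and 1 by at least 2-fold and 3 and none without the block. *Lama5*, the laminin chain of mature basement membranes, was at 68.9, 69 and 88.9 CPM in control and 373, 247 and 289 CPM in A17.2 cells, 3.96-fold higher (1.99 ± 0.12, edgeR adjusted p = 8.0e-08). *Col12a1* rose from 5.42, 12.5 and 11.8 to 18.1, 25.5 and 36.2 CPM (1.45 ± 0.15, edgeR adjusted p = 7.0e-06, 0.1 without the block). *Col1a2*, a chain of type I collagen, was the lower one, at 214, 178 and 153 CPM in control and 5.51, 57.2 and 67.3 CPM in A17.2 cells, where replicate 1 was a small fraction of the others (-2.40 ± 0.73, edgeR adjusted p = 0.018). The call did not hold without the block (0.2), without control replicate 1 (0.0577) or without A17.2 replicate 1 (0.0901).

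Of 30 matrix glycoproteins and proteoglycans 14 were higher and 4 lower, 5 and 1 by at least 2-fold, and 5 and 1 were called without the block. *Vcan*, versican, a large hyaluronan-binding proteoglycan, was at 0.596, 1.18 and 1.27 CPM in control and 104, 90.0 and 106 CPM in A17.2 cells, 93.7-fold higher (6.55 ± 0.18, edgeR adjusted p = 8.5e-12). It had the lowest p of all named genes. *Fn1*, fibronectin, was at 2051, 1474 and 1955 CPM in control and 2559.9, 2936 and 3038 CPM in A17.2 cells (0.66 ± 0.18, edgeR adjusted p = 0.0091), and that call was lost without control replicate 2 (0.0613) or A17.2 replicate 2 (0.0619). Among 27 matrix proteases and their inhibitors 9 were higher and 5 lower (33.3% and 18.5%), 6 and 1 by at least 2-fold and 3 and 1 without the block. *Adamts1*, which cleaves versican, rose from 34.5, 20.6 and 16 to 81.4, 56.4 and 50.7 CPM (1.43 ± 0.15, edgeR adjusted p = 6.8e-06), and *Mmp2*, gelatinase A, fell from 423, 366 and 449 to 270.1, 246 and 281 CPM (-0.63 ± 0.12, edgeR adjusted p = 0.0009).

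The integrins, which bind this matrix, were divided, with 5 of 16 higher and 2 lower (31.2% and 12.5%, beside 17.9% and 19.1% of all genes). It was 1 and 1 by at least 2-fold, 1 and 1 without the block and 2 and 2 without control replicate 3. *Itga3*, a laminin receptor chain, fell from 27.9, 36.5 and 31.1 to 6.09, 6.94 and 6.85 CPM (-2.26 ± 0.12, edgeR adjusted p = 1.2e-08), whereas *Itga6*, another laminin receptor chain, rose from 2.14, 3.49 and 3.42 to 9.68, 9.71 and 9.86 CPM (1.68 ± 0.17, edgeR adjusted p = 4.9e-06). The part of the fibroblast markers given in the opening in the matrix counts was not tested.

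Substrates that ADAM17 is known to shed were more often higher: 15 of 37 rose (40.5%, beside 17.9% of all genes) and 3 fell, with a median of 0.26, 3 and 2 by at least 2-fold and 4 and 2 without the block. *App*, the amyloid precursor protein, was at 462, 288 and 313 CPM in control and 876, 602 and 549 CPM in A17.2 cells (0.93 ± 0.12, edgeR adjusted p = 5.3e-05), and its paralogue *Aplp2* rose by about as much (0.96 ± 0.09, edgeR adjusted p = 4.1e-06). *Il6st*, the gp130 chain of the IL6 receptor, rose from 88, 97.5 and 127 to 162, 173 and 199 CPM (0.79 ± 0.08, edgeR adjusted p = 5.9e-06). *Cx3cl1*, the membrane-bound chemokine fractalkine, fell (-1.36 ± 0.21, edgeR adjusted p = 0.00019). These are transcript levels, and shedding was not measured in these libraries.

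Guidance and patterning genes held some of the largest changes. Of 45 axon guidance genes 17 were higher and 7 lower, 7 and 2 by at least 2-fold and 9 and 3 without the block. *Sema3b*, a secreted semaphorin, rose from 18.3, 10.9 and 13 to 68.7, 37.6 and 36 CPM (1.72 ± 0.11, edgeR adjusted p = 8.4e-08), and *Unc5c*, a netrin receptor, from 0.536, 0.157 and 0.188 to 3.8, 7.46 and 6.92 CPM (4.44 ± 0.49, edgeR adjusted p = 9.9e-06). *Robo2*, a receptor of SLIT ligands, fell from 11.7, 2.28 and 2.02 to 0.0304, 0.39 and 0.207 CPM (-4.54 ± 0.78, edgeR adjusted p = 0.00041). *Wnt5a*, a non-canonical WNT ligand, was at 123, 135 and 96.2 CPM in control and 10.7, 17.9 and 17 CPM in A17.2 cells, a 7.86-fold fall (-2.97 ± 0.19, edgeR adjusted p = 1.0e-07).

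Of 46 developmental transcription factors 16 were lower and 3 higher (34.8% and 6.52%), 5 and 2 by at least 2-fold and 7 and 1 without the block. *Irx1* was at 30.0, 25.7 and 28.8 CPM in control and 0, 2.08 and 2.21 CPM in A17.2 cells (-4.48 ± 0.58, edgeR adjusted p = 4.2e-05), *Eya4* fell from 10.3, 9.42 and 10.1 to 0, 0.694 and 1.14 CPM (-4.15 ± 0.46, edgeR adjusted p = 1.1e-05) and *Tshz3* from 4.53, 2.83 and 4.27 to 0, 0.26 and 0.38 CPM (-4.24 ± 0.57, edgeR adjusted p = 6.1e-05). All 3 had no read in A17.2 replicate 1. *Gata6* was present in A17.2 cells only at low level, 2.53, 2.3 and 3.25 CPM, and was at 0, 0 and 0.0469 CPM in control cells.

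**Figure D4:**
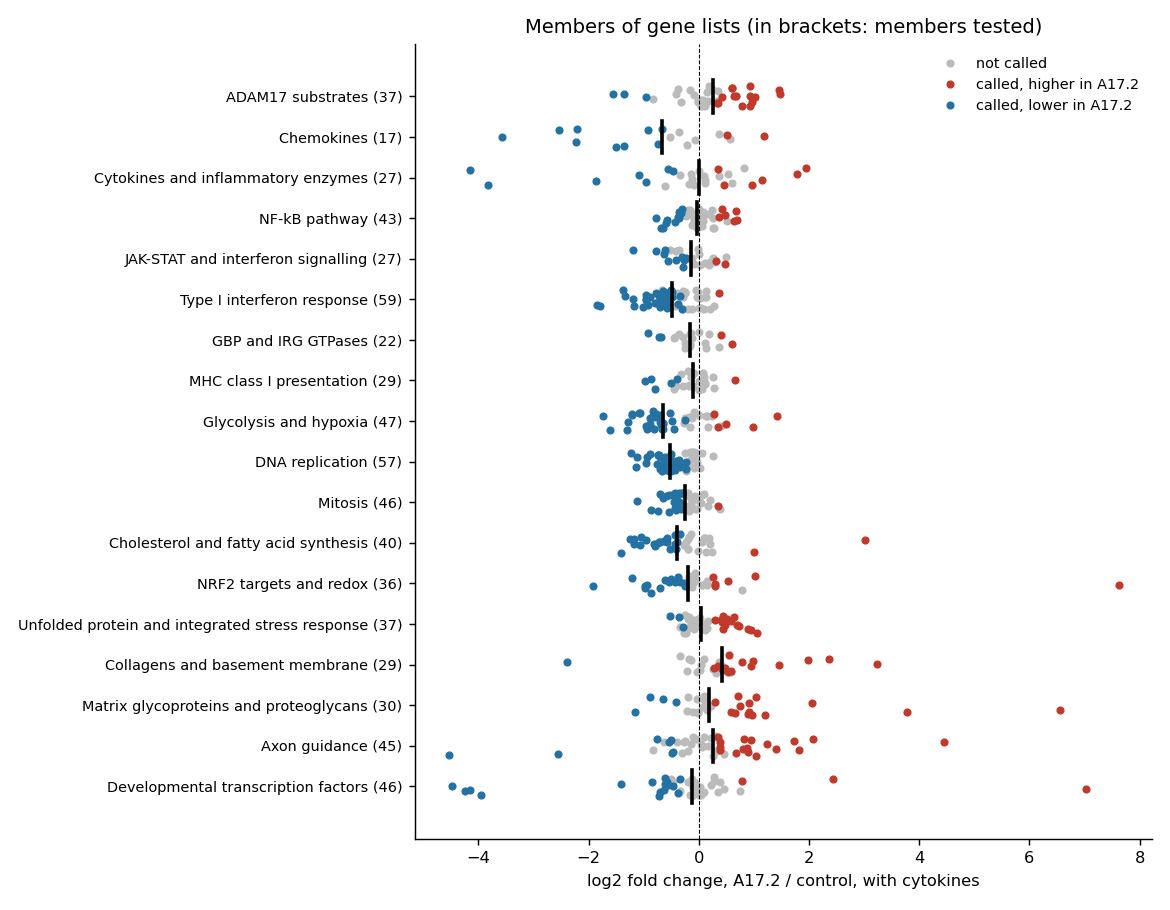
Log2 fold change of A17.2 against control cells with cytokines (horizontal axis) of the tested members of 18 gene lists, 1 point per gene, with the number tested in brackets. Black bars are list medians, red and blue points passed the test, and *Heph* is drawn at its lower bound.

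The 12 highest named genes with non-overlapping groups had little or no expression in control cells. *Heph*, the iron oxidase hephaestin, had no read in the 3 control libraries and 14.9, 6.63 and 6.4 CPM in A17.2 cells, which makes it at least 197-fold higher against a floor of 3 counts over the control group. *Vopp1* was at 0.119, 0.0392 and 0.0938 CPM in control and 19.5, 12.3 and 11.3 CPM in A17.2 cells (7.38 ± 0.30, edgeR adjusted p = 1.1e-09), and *Slc27a6*, a fatty acid transporter, at 0.179, 0.118 and 0.0469 and 21.8, 13.6 and 9.41 CPM (6.97 ± 0.31, edgeR adjusted p = 2.1e-09). The others were *Cdkn2b*, *Nt5e*, *Vcan*, *Ripk3*, *Sorcs2*, *Dpyd*, *Pgr15l*, *Slc14a1* and *Unc5c*, between 4.44 and 6.95 on the log2 scale. In the unstimulated comparison the fitted log2 fold change was at least 2.96 for every one of the 12, and for none did the change between the comparisons pass the test with the block.

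The 12 lowest were *Robo2*, *Irx1*, *Gng2*, *Tshz3*, *Eya4*, *Gjc1*, *Il33*, *Thbd*, *Pde1a*, *Pon3*, *Ccl9* and *Pbxip1*, from -4.54 to -3.36. They shared a pattern among the A17.2 libraries. The genes were chosen by their fold changes in these libraries, and a very low replicate 1 helps a gene into the set. The pattern is therefore a description of the chosen genes, and how many other genes show it was not counted. Replicate 1 held 0 to 5.25% of the level in control replicate 1 (median 0.411%), whereas replicate 2 held 6.54 to 17.1% of its control (median 8.69%) and replicate 3 held 7.7 to 20.9% (median 11.6%). Replicate 1 was below both others for 12 of 12 genes. In the unstimulated libraries the medians were 0.146%, 9.7% and 10.1%, again with replicate 1 below both for 12 of 12. *Gng2*, a G protein γ subunit, is an example at 15.7, 12.6 and 13.7 CPM in control and 0.0609, 0.824 and 1.21 CPM in A17.2 cells. What gives replicates 2 and 3 this remainder was not tested.

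By mass of transcripts, the named genes with the largest falls were *Pkm*, *Ldha*, *Ccl2*, *S100a6*, *Ly6e*, *Eno1*, *S100a4*, *Tubb5*, *Aldoa* and *Rpl8*. *S100a4*, a calcium-binding protein of motile cells, fell from 791, 1540.0 and 1021 to 125, 347 and 320.0 CPM (-2.12 ± 0.22, edgeR adjusted p = 7.0e-06), and *S100a6* from 1621, 1921 and 1806 to 611, 1001 and 906 CPM (-1.11 ± 0.14, edgeR adjusted p = 4.4e-05). *Rpl8* was at -0.41 ± 0.14 (edgeR adjusted p = 0.036), a call lost without control replicate 1, 2 or 3 and without A17.2 replicate 1 or 3 (0.0515 to 0.169). Of the 10 largest rises, 5 were transcripts of the mitochondrial genome and 2 more were *Gm10925* and *Gm28661*, predicted genes. These 2 lie side by side at chr1:24613974-24614651 and chr1:24614885-24615565, and whether their reads were of mitochondrial sequence was not tested. The remaining 3 were *Rps2*, *Fn1* and *Neat1*, and the call for *Rps2* was lost without any single library (0.0553 to 0.183).

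*mt-Cytb*, a subunit of respiratory complex III, was at 4935, 3464 and 2498 CPM in control and 13367, 6257 and 3979.7 CPM in A17.2 cells, highest in replicate 1 of both (0.98 ± 0.15, edgeR adjusted p = 0.00017, 0.25 without the block). Mitochondrial transcripts took 2.135%, 1.841% and 1.477% of counts in the control libraries and 5.051%, 2.862% and 2.249% in the A17.2 libraries. *Neat1*, a nuclear long noncoding RNA, had the same order: 904, 247 and 122 CPM in control and 2673, 529 and 439 CPM in A17.2 cells (1.51 ± 0.13, edgeR adjusted p = 1.2e-06, 0.45 without the block). The part of the mitochondrial share in the other results was not tested. Scaling without mitochondrial genes, which kept *Gm10925* and *Gm28661*, gave 5815 called genes among 15639 tested. That refit uses the same libraries with the same mitochondrial share, so it cannot test that part.

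Position in the genome carried a further pattern, read from annotated gene positions on GRCm38 for 11969 genes with an average log2 CPM of at least 1. Genes of chromosomes 14, 15 and X were lower as a body. On chromosome 14 the median log2 fold change of 405 genes was -0.38, and 56% of them were called lower and 4.2% higher. On chromosome 15 the median of 441 genes was -0.29 with 49.4% lower, and on the X the median of 533 genes was -0.30 with 44.5% lower. The medians of the other 17 autosomes lay between -0.11 and 0.11, with 11.6 to 29.6% of genes lower. In each of the 3 pairs the 3 medians were negative, and replicate 1 had the lowest: -0.56, -0.33 and -0.26 on chromosome 14 in pairs 1, 2 and 3. In unstimulated cells the medians were -0.37, -0.25 and -0.37 on chromosomes 14, 15 and X. Whole-chromosome medians hid shorter stretches. On chromosome 10, neighbouring runs of 25 genes from 11281330 to 42436065 had medians of -0.27, -0.16, -0.32 and -0.32 with cytokines. In these runs 13, 10, 11 and 13 genes were lower, and *Eya4* lies in this segment. On the same chromosome the run from 98914406 to 111988432 had a median of 0.34, with 14 genes higher.

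These 3 chromosomes held 12% of the placed tested genes and 723 of the placed genes called lower (24.7%). Their share of the reads of placed genes was 2.41 to 2.57% in control and 1.77 to 2.04% in A17.2 libraries for chromosome 14, 4.87 to 5.28% and 3.56 to 4.28% for chromosome 15 and 2.93 to 3.11% and 2 to 2.53% for the X, without overlap in each case. *Wnt5a*, *Gng2*, *Fdft1*, *Psme1*, *Psme2* and both *Phf11* genes named above are on chromosome 14, *Pfkm*, *Ly6e* and *Rpl8* on chromosome 15 and *G6pdx* on the X. *Ripk3*, on chromosome 14, and *Heph*, on the X, were higher. The part of these chromosomes in each gene's change was not tested. Leaving out their genes, 42 of 56 DNA replication genes were lower and none higher, 26 of 41 glycolysis and hypoxia genes were lower and 5 higher, and 17 of 35 sterol and fatty acid genes were lower and 2 higher.

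**Figure D5:**
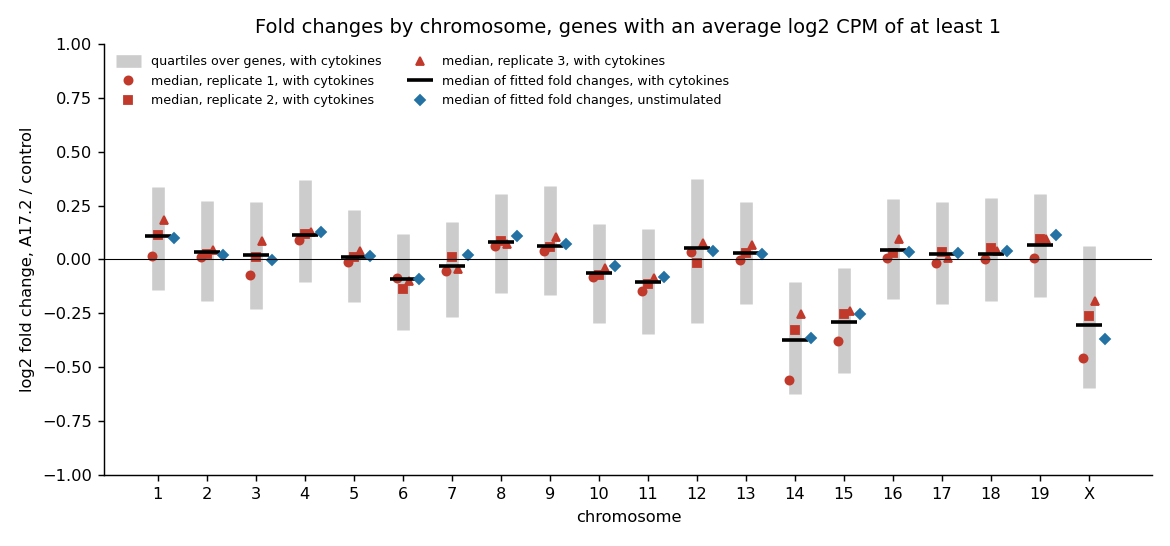
Log2 fold changes of A17.2 against control cells by chromosome (horizontal axis) for genes with an average log2 CPM of at least 1. Grey bars are quartiles over genes with cytokines, black lines medians of the fitted values, red symbols medians of the 3 replicate pairs and blue diamonds the unstimulated medians, and chromosomes 14, 15 and X lie below the others.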

How the data were processed

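Poly(A) RNA was sequenced on the Ion platform, and the authors deposited unnormalised counts by gene symbol for 12 libraries, on mm10 per the processing notes. For aligner, counter, annotation, strand setting and a test of this comparison: not given in the sources used here. The notes say that the raw reads of control replicate 1 with cytokines were corrupted, and its counts were used as deposited. The authors' own tables of fold changes and p-values were not used.

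In R 4.3.3, edgeR 4.0.16 (limma 3.58.1) was fitted to the counts of all 12 libraries: TMM scaling, filterByExpr (minimum count 10) by group, 4 groups plus the replicate number as a block, quasi-likelihood F tests, Benjamini-Hochberg adjustment over 15649 genes. Levels are CPM. Replicates of a group differed beyond counting noise (chi-square over its degrees of freedom 20.2 to 230). The numbers pair the libraries by the labels: deviations from group means correlated at 0.309 to 0.85 in 18 pairs with equal numbers and at -0.751 to 0.455 in 36 with unequal ones. Positions and promoters came from reference tables on GRCm38, with promoter windows for 155 of 211 named genes. On simulated counts for this comparison (15203 genes), 29 of 64, 52 of 65 and 63 of 65 genes planted with log2 changes of 0.5, 1 and 2 were called. There were 9 false calls. Only the planted genes differed between groups and the replicate effect was built in as additive, so the simulation cannot test the block.

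The 34 gene lists and the comparison were chosen with earlier results of these data known. Named were the genes the study had measured itself, 12 genes at either end of the log2 fold changes among 841 genes called with and without the block (log2 CPM of at least 1, groups apart, no predicted genes), the 10 largest rises and falls in CPM, and up to 5 called genes per list by p (at most 3 a direction) with its most abundant member. A gene that this rule also names is not reported here. Marker genes named in the opening come from marker lists. Alternatives were DESeq2 1.42.0, its size factors, other count filters, the 6 libraries alone, no block and leaving out each library; leaving out a replicate number in all groups, scaling without mitochondrial genes and leaving out chromosomes 14, 15 and X were chosen after seeing the data.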

Additional observations from a re-analysis of the deposited data

Results flagged for a closer look

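For 12 named genes the fold change between A17.2 and control cells differed between the unstimulated and the cytokine comparison by the test of that difference with the replicate block. All 12 had a higher log2 fold change with cytokines, and none passed without the block, where the adjusted p was 0.166 to 1. For 9 of the 12 the unstimulated log2 fold change was between -4.43 and -0.81. The 6 libraries of each comparison are different libraries.

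The differences, as log2 values, were 1.671 for *Cxcl10*, 1.578 for *Irf1*, 2.606 for *Ifi47*, 1.261 for *Cd274* and 0.909 for *Nlrc5*, and these 5 passed without each of the 12 libraries in turn, as did *Gm12250*, an immunity-related GTPase gene, at 3.069. *Gm4841*, another of that family, had a difference of 3.502 and passed in 9 of 12 such fits, *Zbp1*, a nucleic acid sensor of cell death, one of 2.376 in 7, and *Gbp7* one of 1.719 in 7. *Psmb8* had a difference of 1.333 and passed in 5 of 12, *Rnf213* one of 0.9165 in 3 and *Birc3* one of 0.6875 in 1.

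*Cd274*, *Nlrc5*, *Gbp7* and *Birc3* were called higher in A17.2 cells with cytokines, at 0.90, 0.65, 0.59 and 0.64, after -0.37, -0.26, -1.12 and -0.05 in unstimulated cells. The call of *Gbp7* with cytokines was lost in DESeq2 and without replicate 1 of either group, control replicate 3 or A17.2 replicate 2 (adjusted p 0.0661 to 0.197).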

How the results depend on the processing

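Without the replicate block, so without the pairing of the libraries, 1072 genes were called in place of 5791, 529 in place of 1214 by at least 2-fold, and 0 in place of 65 for the difference between the comparisons; the block lowered the common dispersion to 0.011 from 0.0795. Of the 190 named genes that were called, 94 lost their call without it. Requiring 50 counts in 3 libraries gave 716 genes called by at least 2-fold. Leaving out single libraries or a replicate number gave 3732 to 4742 called genes (3732 without replicate 3 of all groups), 944 to 1202 by at least 2-fold and 27 to 157 for the difference. DESeq2, its size factors, the other filters, the 6 libraries alone and scaling without mitochondrial genes gave 5338 to 5815 called genes. No called named gene turned its fitted direction in any of these fits, whereas 13 of the 21 that were not called did so in at least 1. Of the 190 called, 161 kept their call without each single library with cytokines and 29 lost it in at least 1 such fit. Without control replicate 1 the list of epithelial junctions and keratins had 1 lower and 3 higher in place of 6 and 3, and without control replicate 3 the WNT list had 4 lower and 3 higher in place of 5 and 6. Without replicate 3 of all groups the cytokine list had 6 lower and 2 higher, axon guidance 3 and 12 and the NRF2 list 11 and 3, and without replicate 2 matrix glycoproteins had 1 and 9. Counts of under 1 CPM in control cells limit the folds of *Vopp1*, *Cdkn2b*, *Nt5e* and *Ripk3*.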

Other observations

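Genes of the unfolded protein and integrated stress response were higher in part: 14 of 37 rose and 3 fell (37.8% and 8.11%, beside 17.9% and 19.1% of all genes), 1 and none by at least 2-fold and 3 and none without the block, with a median of 0.05. *Atf6*, a sensor of the endoplasmic reticulum, was at 106, 82.7 and 102 CPM in control and 201, 191 and 213 CPM in A17.2 cells (1.06 ± 0.09, edgeR adjusted p = 1.4e-06). *Sel1l* and *Syvn1*, which form the ubiquitin ligase of ER-associated degradation, rose by 0.95 ± 0.09 and 0.73 ± 0.10 on the log2 scale (edgeR adjusted p = 2.2e-06 and 5.0e-05, the latter 0.074 without the block). *Hspa5*, the chaperone BiP, was at 0.42 ± 0.12 (edgeR adjusted p = 0.011, 0.4 without the block, 0.0571 without control replicate 2 and 0.0619 without A17.2 replicate 1). Of 20 aminoacyl-tRNA synthetases 1 passed, *Wars*, the IFNγ-inducible tryptophanyl enzyme, at 914, 743 and 794 CPM in control and 1278, 1694 and 1462 CPM in A17.2 cells (0.85 ± 0.14, edgeR adjusted p = 0.00029). The number of synthetases called was 3 without A17.2 replicate 1 and in DESeq2, and 2 without control replicate 1 or A17.2 replicate 2 and with at least 50 counts in 3 libraries.

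Both lines carry an shRNA vector. Of 15 genes of the RNA interference machinery 5 were higher and 3 lower (33.3% and 20%, beside 17.9% and 19.1% of all genes), 1 and none by at least 2-fold and 3 and none without the block. *Dicer1*, which cuts short hairpins, was at 46, 50.1 and 44.2 CPM in control and 71.5, 70.7 and 74 CPM in A17.2 cells (0.62 ± 0.09, edgeR adjusted p = 6.6e-05), and *Ago3*, an Argonaute protein, rose from 10.0, 13.5 and 15 to 25.4, 24.2 and 27.4 CPM (1.01 ± 0.14, edgeR adjusted p = 7.4e-05). *Tarbp2*, a partner of Dicer, was at -0.55 ± 0.10 (edgeR adjusted p = 0.00085, 0.17 without the block). Of 6 drug efflux transporters 5 were higher, 3 without A17.2 replicate 1 and 1 without the block, among them *Abcg2*, from 0.119, 0.275 and 0.281 to 1.22, 1.52 and 1.28 CPM (2.50 ± 0.35, edgeR adjusted p = 8.8e-05).

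Of 39 genes of the TGFβ and BMP pathways 9 were higher and 7 lower (23.1% and 17.9%, near the shares of all genes), 4 and 2 by at least 2-fold and 2 and 2 without the block. *Fst*, follistatin, which binds activins, rose from 1.31, 1.06 and 1.17 to 11.9, 5.55 and 4.98 CPM (2.56 ± 0.22, edgeR adjusted p = 1.6e-06), and *Inhba*, the activin A subunit, fell from 8.58, 7.46 and 7.32 to 2.65, 2.04 and 2.32 CPM (-1.73 ± 0.16, edgeR adjusted p = 2.8e-06). Of 29 WNT pathway genes 6 were higher and 5 lower, both near the shares of all genes (17.9% and 19.1%). It was 3 and 4 without control replicate 3, 4 and 3 without A17.2 replicate 2 and 2 and 1 without the block. *Rspo3*, a WNT amplifier, was at 0.0596, 0.0392 and 0.0469 CPM in control cells, 1 read in each library, and 1.55, 1.56 and 1.49 CPM in A17.2 cells. Of 9 MHC class II genes 2 were higher (22.2%, beside 17.9% of all genes), 1 without control replicate 2 or 3 or any single A17.2 library and none without the block. *Cd74*, the invariant chain, was at 3.16, 1.53 and 1.45 CPM in control and 15.7, 4.03 and 4.36 CPM in A17.2 cells (1.82 ± 0.25, edgeR adjusted p = 7.8e-05, 0.073 without the block).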
